A study of Mus musculus with 2 samples.

Results

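The extracellular ATP and adenosine pathway was examined in regulatory T (Treg) cells through 8 genes chosen by symbol: Entpd1, Nt5e, Ada, Dpp4, Adora2a, Adora2b, Adora3 and P2rx7, out of 20938 genes in the deposited tables. RNA-seq was performed on 1 library of splenic Treg cells from littermate control mice and 1 library from Foxp3-Mettl14f/+ cKO mice, both taken on day 7 after transplantation. The mice were on a C57BL/6J background, had been made diabetic with streptozotocin and carried BALB/c islets under the kidney capsule. The controls are described as Mettl14f/f by the study and as wild type by the sample labels. In the cKO mice, Cre driven by Foxp3 acted on 1 floxed allele of Mettl14, so the other allele was not targeted, and the Cre is active in cells that express Foxp3. By the study's description these mice received no tolerance-inducing antibodies. The ages of the mice and the number of mice behind each library are not given in the sources used here. The Treg cells were isolated with a CD4+CD25+ isolation kit, after red cells had been lysed.

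Cells that are stressed, activated or dying release ATP, which acts on receptors such as P2RX7 as a danger signal. CD39, encoded by Entpd1, and CD73, encoded by Nt5e, convert this ATP stepwise into adenosine, and adenosine acting on receptors that raise cyclic AMP restrains T cell responses. Treg cells are known for carrying both enzymes on their surface. Adenosine is removed by adenosine deaminase, which on human cells can be held at the surface by CD26, the product of Dpp4. Whether this holds for these mouse cells was not tested.

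The control library held 20239325 recovered reads and the library labelled KD held 18327535. Each deposited value was a whole read count divided by 1 size factor per library, and 1 read was worth 0.967 in the control library and 1.14 in the library labelled KD. Levels are given on this deposited scale, and differences as the log2 of the level plus 1 in the library labelled KD over the level plus 1 in the control library, with a difference of at least 1.5-fold called higher or lower. A second scale, called the T cell scale, sets the median log2 difference of 16 T cell core genes to 0. The 95% intervals are exact Clopper-Pearson intervals of the ratio of the reads. They cover counting error only, since without molecular identifiers some reads may be copies of 1 molecule. Each genotype has 1 library, so replicate spread is unknown, no test of the genotype was possible, and each statement compares these libraries. Mettl14, the targeted gene, had 948 reads (control) and 652 (library labelled KD), a log2 difference of -0.31 (95% interval -0.45 to -0.16) over the whole gene. On the T cell scale its log2 difference was -0.00 (95% interval -0.15 to 0.14), so the lower level of the targeted gene was not seen there. The exons that were floxed are not given in the sources used here. The labels name the genotype of the second library as a Foxp3 knockdown. Foxp3 had 1547 and 1361 reads and a log2 difference of 0.05 (95% interval -0.06 to 0.15), or 0.35 (0.25 to 0.46) on the T cell scale. Its RNA level goes against that label, and the library is called the library labelled KD throughout. By western blot, the study reported less FOXP3 protein in Treg cells from heterozygous and homozygous cKO mice. For the blotted cells it states no transplant or day. RNA-seq does not measure protein. All of the T cell core genes and all 15 Treg markers examined were detected in both libraries. Reads on 15 granulocyte markers, 274342 and 317163, exceeded those on the T cell core genes, 64575 and 43290.

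All 8 pathway genes passed the minimum mean level of 1, and 4 of them, Entpd1, Ada, Dpp4 and Adora3, were at least 1.5-fold higher in the library labelled KD. None of the 8 was lower. Of the 16659 genes that passed the same filter, 17.2% were called higher and 24.2% lower. The median log2 difference of the 8 genes was 0.52, against -0.04 for all genes that passed. On the T cell scale, 7 of the 8 genes were past 1.5-fold, with a median of 0.82, while the median of all genes moved by 0.30 to 0.26 and 28.3% of genes were called higher and 19.3% lower. With a minimum mean level of 10, which all 8 genes passed, 15.4% of genes were higher and 14.9% lower. An exact binomial test on the reads also required 1.5-fold on the deposited scale. It could therefore add no pathway gene to the 4 already past that fold. It called all 4, beside 14.6% of genes higher and 17.5% lower. With the same fold requirement and an assumed coefficient of variation of 0.4, the exact test of edgeR called Adora3 alone of the 8. This stands beside 1.54% of genes higher and 3.83% lower. Of all genes called at 1.5-fold, 41.6% were higher on the deposited scale and 59.4% on the T cell scale.

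**Figure D1:**
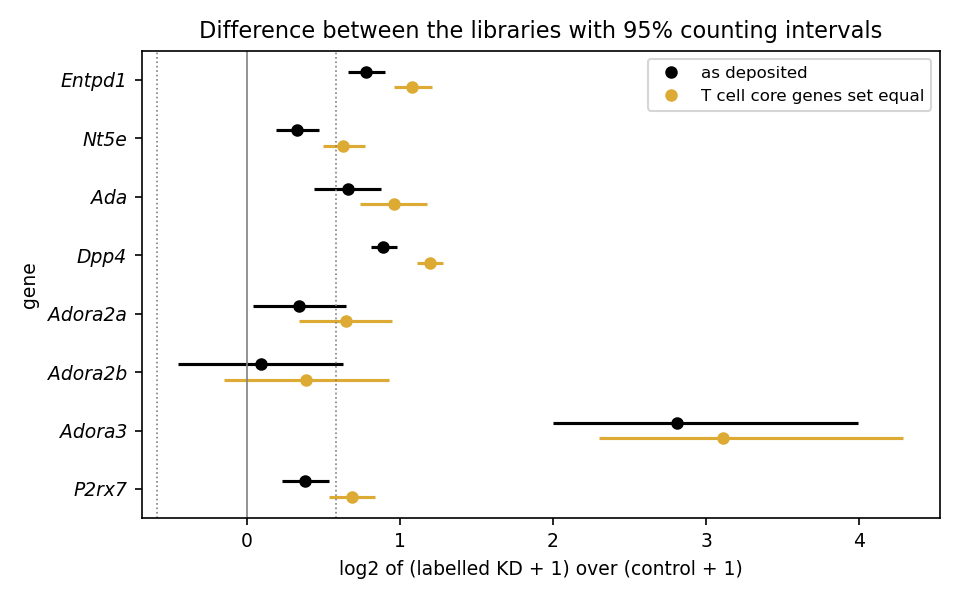
Log2 difference (horizontal axis) of each of the 8 pathway genes between the library labelled KD and the control library, on the deposited scale (black) and on the T cell scale (yellow). Horizontal bars are 95% counting intervals and dotted lines mark 1.5-fold; Adora3 lies farthest to the right at 2.81, and the interval of Adora2b includes 0 under both scalings.

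Entpd1 encodes CD39, which removes phosphates from extracellular ATP and ADP and leaves AMP. In GRCm38, the build of all positions given here, the gene spans chromosome 19, 40612366 to 40741602 (plus strand). Deposited levels of Entpd1 were 892.9 (control) and 1535.2 (library labelled KD), from 923 and 1350 reads. This is a 1.72-fold higher level, with a log2 difference of 0.78 (95% interval 0.66 to 0.90), so the whole interval lay above 1.5-fold. Nt5e encodes CD73, which takes the last phosphate from AMP and so yields adenosine. Nt5e lies on chromosome 9, 88327197 to 88372092 (plus strand). It had 822 and 879 reads, and levels of 795.2 and 999.6. Its level was 1.26-fold higher in the library labelled KD, a log2 difference of 0.33 (95% interval 0.19 to 0.47), which was under 1.5-fold on the deposited scale and 0.63, just past it, on the T cell scale. The 2 enzymes therefore differed by unequal amounts. For each read on Nt5e there were 1.12 reads on Entpd1 in the control library and 1.54 in the library labelled KD. These ratios are not corrected for gene length, which cancels between the libraries, and they do not depend on how the libraries were scaled. The ratio was 1.37 times as high in the library labelled KD (conditional exact 95% interval 1.2 to 1.56).

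Ada encodes adenosine deaminase, which turns adenosine into inosine. The gene lies on chromosome 2, 163726584 to 163750239 (minus strand). Ada stood at levels of 290.2 (control) and 458.3 (library labelled KD), from 300 and 403 reads. This is a 1.58-fold higher level, with a log2 difference of 0.66 (95% interval 0.44 to 0.88), and the lower part of this interval was under 1.5-fold. Dpp4 encodes CD26, a surface peptidase that binds adenosine deaminase on human T cells. It lies on the same chromosome at 62330073 to 62412231 (minus strand). Dpp4 stood at levels of 1810.0 (control) and 3358.0 (library labelled KD), from 1871 and 2953 reads. Its level was 1.86-fold higher, with a log2 difference of 0.89 (95% interval 0.81 to 0.98). An annotated antisense gene, Gm13561, shares 232 bases, or 3.67%, of the Dpp4 exons, and the counting is not stated to use strand. Ada and Dpp4 were both higher, and the number of Ada reads per Dpp4 read was 0.16 (control) and 0.136 (library labelled KD). The ratio of these was 0.851 (conditional exact 95% interval 0.723 to 1).

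Adora2a and Adora2b encode the adenosine receptors that couple to adenylate cyclase and raise cyclic AMP, of which the first is the main adenosine receptor of T cells and the second needs more adenosine. Adora2a lies on chromosome 10, 75316877 to 75334784 (plus strand) and had 174 reads (control) and 188 (library labelled KD). Its levels of 168.3 and 213.8 differed by 0.34 on the log2 scale (95% interval 0.04 to 0.65). On the T cell scale the value was 0.65, past 1.5-fold. Adora2b, on chromosome 11, 62248984 to 62266453 (plus strand), had 63 and 57 reads, and levels of 60.9 and 64.8. Its log2 difference was 0.09 (95% interval -0.45 to 0.63), so a difference between the libraries was not detectable at this depth, and the interval runs from a lower level to one somewhat over 1.5-fold higher. There were 2.76 reads on Adora2a for each read on Adora2b in the control library and 3.3 in the library labelled KD, a ratio of 1.19 (conditional exact 95% interval 0.773 to 1.85).

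Adora3 encodes an adenosine receptor that couples to inhibitory G proteins and is best known from mast cells and granulocytes. It lies on chromosome 3, 105870858 to 105908926 (plus strand). Its reads numbered 11 (control) and 71 (library labelled KD), or levels of 10.6 and 80.7. The level was 7.59-fold higher, with a log2 difference of 2.81 (95% interval 2.0 to 3.99), the widest interval of the 8 genes that were compared. The gene Tmigd3 lies on the same strand and shares 779 bases, or 20.9%, of the Adora3 exons, so reads from the shared part could have gone to either gene. Tmigd3 had 15 and 46 reads and a log2 difference of 1.78. Summed, the pair had 26 and 117 reads, a log2 difference of 2.36 (95% interval 1.78 to 3.08), so the pair together was also past 1.5-fold. Of 9 mast cell and basophil markers, 7 were detected, Mcpt4 and Tpsb2 were at 0 in both libraries, and summed levels were 4505.1 (control) and 2819.0 (library labelled KD). Kit, at 2863.5 and 1601.1, made up most of these sums. Cma1, the mast cell chymase, was the exception among the detected markers, with 22 and 97 reads and a log2 difference of 2.32. The log2 differences of Cpa3, Kit, Gata2 and Fcer1a were -0.92, -0.84, -0.77 and -0.62. Those of Ms4a2 and Mcpt8 were nearer 0, at -0.18 and -0.05. The 15 granulocyte markers had summed levels of 265395.1 (control) and 360665.0 (library labelled KD). Of these markers 3 were higher and 3 lower, with a median log2 difference of 0.44. The part of mast cells, basophils and granulocytes in the Adora3 reads was not tested.

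P2rx7 encodes the ATP-gated channel through which high extracellular ATP can kill T cells and start inflammasome signaling in myeloid cells. It lies on chromosome 5, 122643911 to 122691432 (plus strand). P2rx7 stood at levels of 659.8 (control) and 860.8 (library labelled KD), from 682 and 757 reads. The log2 difference was 0.38 (95% interval 0.23 to 0.54), under 1.5-fold on the deposited scale and 0.69, past it, on the T cell scale. Relative to the first enzyme of the pathway, the receptor was lower in the library labelled KD: there were 0.739 reads on P2rx7 for each read on Entpd1 in the control library and 0.561 in the library labelled KD, a ratio of 0.759 (conditional exact 95% interval 0.663 to 0.869).

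Levels of different genes were compared as reads per kilobase of annotated exon per 1000000 reads, with exact Poisson 95% intervals. In the control library Dpp4 was at 14.6 (14 to 15.3), ahead of Entpd1 at 8.17 (7.65 to 8.72) and Ada at 7.4 (6.59 to 8.29), whose intervals overlapped each other. P2rx7 followed at 5.64 (5.23 to 6.08) and Nt5e at 4.72 (4.4 to 5.06). The receptors for adenosine came last, with Adora2a at 2.81 (2.41 to 3.26), Adora2b at 1.69 (1.3 to 2.16) and Adora3 at 0.146 (0.0728 to 0.261). The order was the same in the library labelled KD. There Dpp4 was at 25.5 (24.6 to 26.4), Entpd1 at 13.2 (12.5 to 13.9), Ada at 11 (9.94 to 12.1), P2rx7 at 6.92 (6.43 to 7.43) and Nt5e at 5.58 (5.21 to 5.96). Among the receptors Adora2a was at 3.35 (2.89 to 3.86), Adora2b at 1.69 (1.28 to 2.18) and Adora3 at 1.04 (0.811 to 1.31). Adora3, which had been over an order of magnitude below Adora2b in the control library, came within reach of it in the library labelled KD, where their intervals just overlapped.

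**Figure D2:**
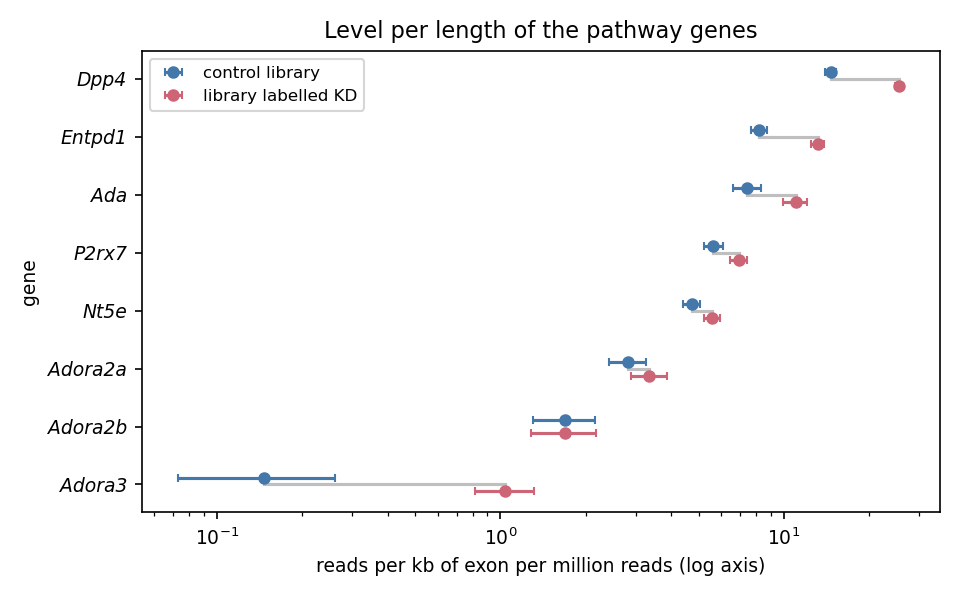
Level of each of the 8 genes per length, in reads per kilobase of exon per 1000000 reads on a log axis, in the control library (blue) and the library labelled KD (red), with exact Poisson 95% intervals as bars. The order of the genes is the same in both libraries, from Dpp4 at 14.6 and 25.5 to Adora3 at 0.146 and 1.04.

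Each of the 8 genes was also set against Foxp3 within its own library, which does not depend on scaling. Foxp3 shares exon bases with genes on the opposite strand, Ccdc22 and Ppp1r3f among them. In the control library there were 1.21 Dpp4 reads, 0.597 Entpd1 reads, 0.531 Nt5e reads and 0.441 P2rx7 reads for each Foxp3 read. In the library labelled KD these were 2.17, 0.992, 0.646 and 0.556. The ratio between the libraries was 1.79 for Dpp4 (conditional exact 95% interval 1.63 to 1.97), 1.66 for Entpd1 (1.49 to 1.86), 1.26 for P2rx7 (1.11 to 1.43) and 1.22 for Nt5e (1.08 to 1.37). It was 1.53 for Ada (1.29 to 1.81) and 7.34 for Adora3 (3.84 to 15.4). For Adora2a it was 1.23 (0.981 to 1.54) and for Adora2b 1.03 (0.7 to 1.51), and both of these intervals include 1. Thus 6 of the 8 genes had more reads per Foxp3 read in the library labelled KD, beyond counting error. Without regard to intervals, each of the 8 ratios was above 1. Of all genes that passed the filter, 56.5% had a log2 difference below that of Foxp3, also without regard to intervals. More reads per Foxp3 read were therefore not particular to these genes, and the part of other cell types in these ratios was not tested.

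The promoter windows of the 4 genes called higher are shown because these genes stood past 1.5-fold together. RefSeq starts on GRCm38.p6 were used, 7 of the 8 genes matched, and Adora2a had no entry. Each window is the 250 bases before an annotated start, 5′ to 3′ on the strand of the gene. Capitals mark matches on either strand to a TATA box (TATAAA), a GC box (GGGCGG), a cyclic AMP response element (TGACGTCA), an AP-1 site (TGANTCA), a STAT site (TTCNNNGAA) or an ETS core (GGAAGT). Entpd1 has 2 such starts, at chr19:40612116-40612365 and chr19:40659520-40659769, and the other windows are chr2:163750240-163750489 for Ada (minus strand), chr2:62412232-62412481 for Dpp4 (minus strand) and chr3:105904171-105904420 for Adora3.
Entpd1, upstream start: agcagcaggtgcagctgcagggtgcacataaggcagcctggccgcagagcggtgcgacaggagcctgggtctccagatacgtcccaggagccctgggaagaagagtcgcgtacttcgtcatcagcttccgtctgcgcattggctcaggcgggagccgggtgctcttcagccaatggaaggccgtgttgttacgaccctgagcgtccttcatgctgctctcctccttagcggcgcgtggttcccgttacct
Entpd1, downstream start: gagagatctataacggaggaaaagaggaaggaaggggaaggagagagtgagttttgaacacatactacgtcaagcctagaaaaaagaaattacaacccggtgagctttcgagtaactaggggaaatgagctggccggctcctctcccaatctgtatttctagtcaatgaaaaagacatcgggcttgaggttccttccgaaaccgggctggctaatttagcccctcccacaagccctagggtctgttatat
Ada: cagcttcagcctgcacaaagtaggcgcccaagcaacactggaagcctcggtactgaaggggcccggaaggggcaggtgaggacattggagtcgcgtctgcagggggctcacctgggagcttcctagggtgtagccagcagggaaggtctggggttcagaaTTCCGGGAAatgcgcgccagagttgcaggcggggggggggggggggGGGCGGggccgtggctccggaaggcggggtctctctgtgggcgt
Dpp4: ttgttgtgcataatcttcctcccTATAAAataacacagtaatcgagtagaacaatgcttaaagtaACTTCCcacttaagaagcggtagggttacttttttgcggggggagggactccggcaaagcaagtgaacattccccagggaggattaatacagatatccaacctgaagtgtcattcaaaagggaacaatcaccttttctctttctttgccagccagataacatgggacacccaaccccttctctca
Adora3: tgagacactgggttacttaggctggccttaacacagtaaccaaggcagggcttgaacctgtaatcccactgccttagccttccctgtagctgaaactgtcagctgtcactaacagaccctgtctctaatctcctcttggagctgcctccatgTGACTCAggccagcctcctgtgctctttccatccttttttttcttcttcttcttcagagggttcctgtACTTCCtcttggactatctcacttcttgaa
None of the 6 motifs was found in either Entpd1 window. The Ada window held a GC box and a STAT site, with a GC content of 67.2%. The Dpp4 window held a TATA box and an ETS core at a GC content of 43.6%, and the Adora3 window held an AP-1 site and an ETS core at 48.8%. No motif was shared by all of these windows. Of 32841 promoter windows of the same length, 12.4% held the TATA box, 32.7% the GC box, 1.55% the cyclic AMP response element, 6.75% the AP-1 site, 7.02% the STAT site and 19.7% the ETS core. A match describes letters in the window and was not tested as a binding site.

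The rest of the pathway was represented by 74 further genes, of which 68 passed the filter and 6 (Entpd2, Enpp3, Slc28a1, Nt5c1a, Nt5c1b and P2rx6) had 0 reads in both libraries. Of the 68, 16 were higher in the library labelled KD and 8 lower, that is 23.5% and 11.8%, with a median log2 difference of 0.17. These shares stand beside 17.2% and 24.2% for all genes, and the counts by role given below are to be read against the same shares. On the T cell scale, 26 of the 68 were higher and 6 lower, beside 28.3% and 19.3% of all genes. Of the genes called on the deposited scale, 19 had a counting interval outside 0.

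**Figure D3:**
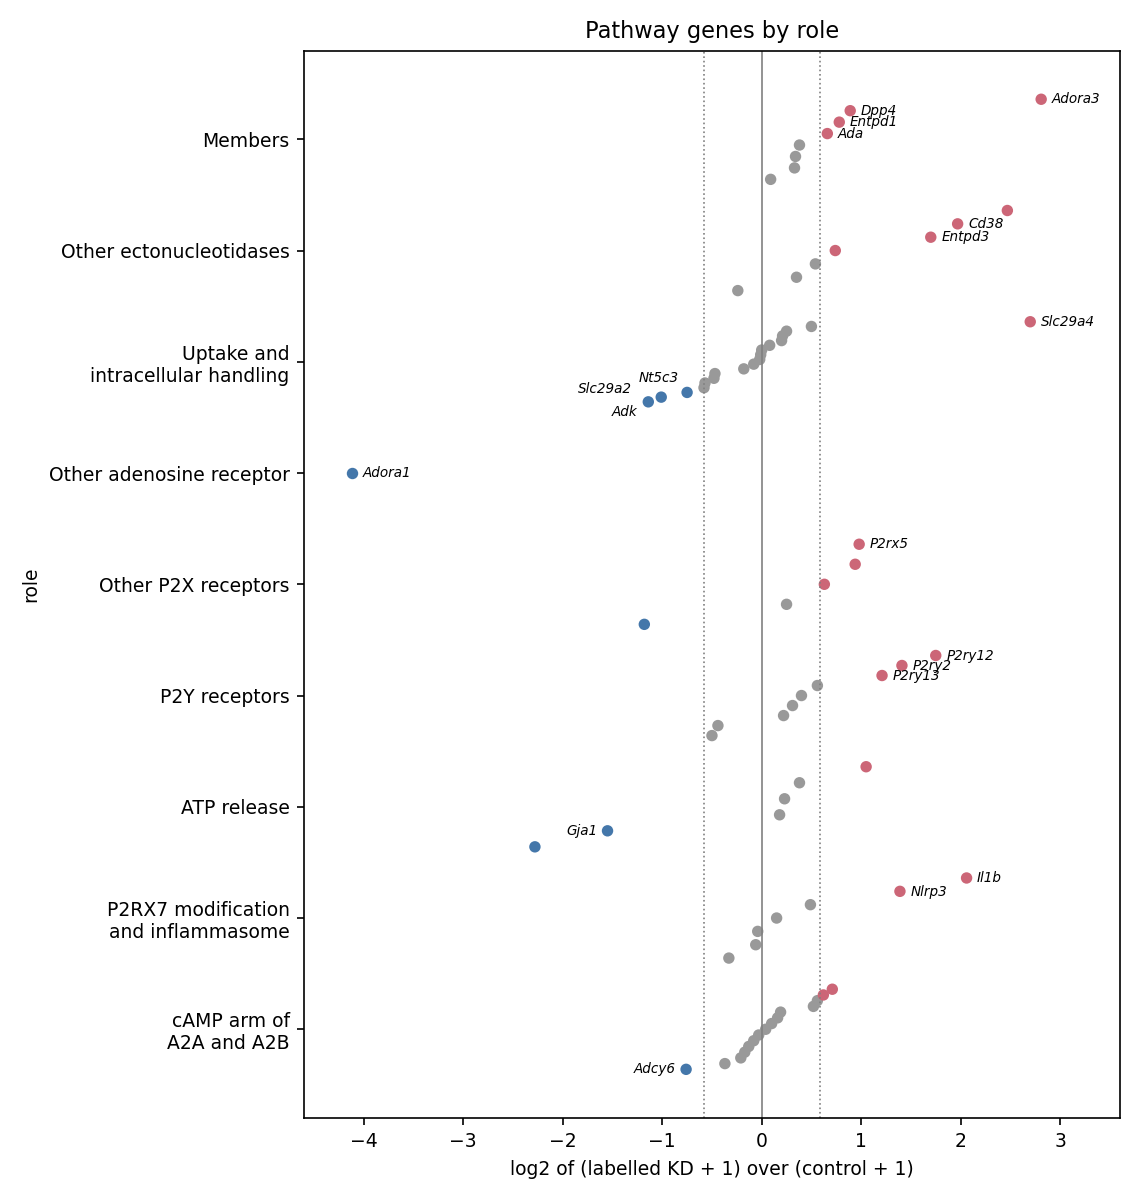
Log2 difference between the library labelled KD and the control library (horizontal axis) for the 8 members and for the 68 further pathway genes that passed the filter, grouped by role, with 1 point per gene. Red and blue points are at least 1.5-fold higher and lower, and dotted lines mark 1.5-fold. The members, the other ectonucleotidases, the P2Y receptors and the P2RX7 and inflammasome genes hold red points and no blue ones. Adora1, with 17 and 0 reads, has a position that depends on the pseudocount.

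Among the other ectonucleotidases, 4 of the 7 that passed the filter were past 1.5-fold higher and none was lower, but 1 of the 4, Entpd8, had 0 and 4 reads and a counting interval that includes 0. Cd38, which consumes extracellular NAD and can feed AMP to CD73, had 360 reads (control) and 1200 (library labelled KD), a log2 difference of 1.97 (95% interval 1.80 to 2.14). As a mean of both libraries it had the highest level per length of this group, although in the control library Bst1 and Acpp, at 6.78 and 5.35 reads per kilobase per 1000000 reads, stood above Cd38 at 4.57. Entpd3, a relative of CD39, had 76 and 212 reads and a log2 difference of 1.70 (1.33 to 2.11). Alpl, a phosphatase that can act on the same nucleotides, had 104 and 148 reads and a log2 difference of 0.74. Enpp1, which splits ATP into AMP and pyrophosphate, had 748 and 538 reads and a log2 difference of -0.24.

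The genes for uptake and intracellular handling of adenosine did not share this direction. Of 18 that passed the filter, 1 was higher and 3 were lower. These shares, 5.56% and 16.7%, were below the 17.2% and 24.2% of all genes. Their median log2 difference was -0.05, close to the -0.04 of all genes. Adk encodes adenosine kinase, which returns adenosine to AMP inside the cell. It had 1138 reads (control) and 440 (library labelled KD), a log2 difference of -1.14 (95% interval -1.30 to -0.98) that remained past 1.5-fold, at -0.83, on the T cell scale. Slc29a2, an equilibrative nucleoside transporter, had 84 and 35 reads and a log2 difference of -1.01 (-1.64 to -0.44). Nt5c3, a pyrimidine nucleotidase of the cytosol, had 1368 and 690 reads and a log2 difference of -0.75, or -0.45 and no longer past 1.5-fold on the T cell scale. Slc29a1, the main equilibrative transporter of adenosine, stood just inside 1.5-fold at -0.58, with 1591 and 906 reads. Pnp, the phosphorylase that takes up inosine from the deaminase, was at -0.57 with 3440 and 1966 reads. Slc29a4, a transporter of monoamines and adenosine, went the other way with 12 and 71 reads and a log2 difference of 2.70 (1.90 to 3.82). Nt5c, a nucleotidase with the highest level per length in the role as a mean of both libraries, had 946 and 803 reads and a log2 difference of -0.00. Summed levels of 12 erythroid markers were 31154.7 (control) and 14547.7 (library labelled KD), with 11 of them lower, and their part in these differences was not tested.

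Among the receptors, Adora1, the remaining adenosine receptor, had 17 control reads and 0 in the library labelled KD. Set against a chosen floor of 3 reads in that library, its level was 4.82-fold lower. Its 95% counting interval reached up to a log2 difference of -1.81, which is a smaller difference than that. Zeros were common there: 610 of the 1224 genes that had 10 to 19 control reads were at 0 in the library labelled KD, and 158 of the 836 genes with 10 to 19 reads in that library were at 0 in the control. Of the 5 other P2X channels that passed the filter, 3 were higher and 1 was lower, and of these P2rx3, with 5 and 9 reads, and P2rx2, with 20 and 7, had intervals that include 0. P2rx4, the most abundant of them per length, had a log2 difference of 0.25, from 508 and 515 reads. P2rx5 had 21 and 36 reads and a log2 difference of 0.98 (95% interval 0.20 to 1.86). Of 9 genes named as P2Y receptors, most of which sense nucleotides through G proteins, 3 were higher and none was lower. These were P2ry12, the ADP receptor known from platelets and microglia, with 47 and 137 reads (log2 difference 1.75), P2ry2, an ATP and UTP receptor, with 56 and 128 reads (1.41), and P2ry13, another ADP receptor, with 182 and 360 reads (1.21). The most abundant P2Y receptor per length, P2ry10, a lysophospholipid receptor of lymphocytes, had 1489 and 1569 reads and a log2 difference of 0.31, or 0.61 on the T cell scale. Of 6 platelet markers, 3 were higher and 1 was lower, and their summed level was 929.7 and 1228.1.

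Around P2RX7, 2 of 7 genes were higher and none was lower. Art2b encodes the enzyme that ADP-ribosylates P2RX7 on mouse T cells, and had 1362 and 922 reads and a log2 difference of -0.33. Nlrp3, the inflammasome sensor, had 339 reads (control) and 755 (library labelled KD), a log2 difference of 1.39 (95% interval 1.20 to 1.58). Il1b, which encodes a cytokine matured by the inflammasome, had 1185 and 4199 reads and a log2 difference of 2.06 (1.97 to 2.15). Pycard and Casp1, the adaptor and the protease of the same complex, had log2 differences of -0.06 and 0.49. Among 6 genes for ATP release, 1 was higher and 2 were lower, and of these Panx3, with 8 and 15 reads, and Panx2, with 4 and 0, had intervals that include 0. Gja1, which encodes connexin 43, had 340 and 98 reads and a log2 difference of -1.55 (-1.90 to -1.23). Lrrc8a, a subunit of volume-regulated channels and the most abundant gene of this role per length, was at 0.38, and Panx1, the pannexin channel of T cells, was at 0.23.

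Below the adenosine receptors, the 15 genes of the cyclic AMP arm had a median log2 difference of 0.04, with 2 higher and 1 lower. Gnas, the stimulatory G protein subunit, had 6528 reads (control) and 8514 (library labelled KD), a log2 difference of 0.62 (95% interval 0.57 to 0.66) close to 1.5-fold. Pde4a, a phosphodiesterase that degrades cyclic AMP, had 316 and 441 reads and a log2 difference of 0.71. Adcy6, an adenylate cyclase, had 1337 and 672 reads and a log2 difference of -0.76 (-0.90 to -0.62), which was -0.45 on the T cell scale. Adcy7, the cyclase with more reads, was at 0.19. Prkar1a, the regulatory subunit of protein kinase A and the gene with the highest level per length in this role, was at 0.04, and Creb1, which encodes a factor activated by the kinase, was at -0.21.

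Markers of other cells that carry these proteins differed between the libraries. Entpd1 and Nt5e are also expressed by B cells, and Entpd1 and P2rx7 by macrophages. All 16 B cell markers were higher in the library labelled KD, with summed levels of 10617.1 (control) and 53598.9 (library labelled KD). All 19 macrophage markers were higher, with summed levels of 6173.9 and 20434.8, and Marco and Timd4 were at 0 in the control library. Dpp4 and Nt5e can also be carried by CD8 T cells. Of 15 CD8 T and NK cell markers, 8 were higher and none was lower, with summed levels of 9266.6 and 16899.3. The genes that define CD8 T cells, Cd8a with 449 and 1824 reads and Cd8b1 with 365 and 1708, had log2 differences of 2.25 and 2.46. The 15 granulocyte markers, with summed levels of 265395.1 and 360665.0, were split. Camp, Ngp and Cxcr2 were the 3 higher, at 0.88, 0.66 and 0.64, and Mpo, Prtn3 and Ctsg the 3 lower, at -1.03, -1.17 and -1.38. Of 16 T cell core genes none was higher and 3 were lower, with summed levels of 62469.1 and 49227.7. The 15 Treg markers had summed levels of 11533.2 and 12604.3, with 2 higher and 2 lower. Summed levels of the 8 pathway genes were 4688.0 (control) and 7571.2 (library labelled KD). The median log2 differences were 2.38 for B cell, 2.80 for macrophage, 0.44 for granulocyte, 0.63 for CD8 T and NK cell, 0.24 for dendritic cell, 0.69 for platelet, -0.62 for mast cell and basophil, -1.15 for erythroid, -0.08 for Treg and -0.30 for T cell core genes. In bulk RNA, more cells of a type and more RNA per cell cannot be told apart, and the part of these cells in the differences of the pathway genes was not tested.

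**Figure D4:**
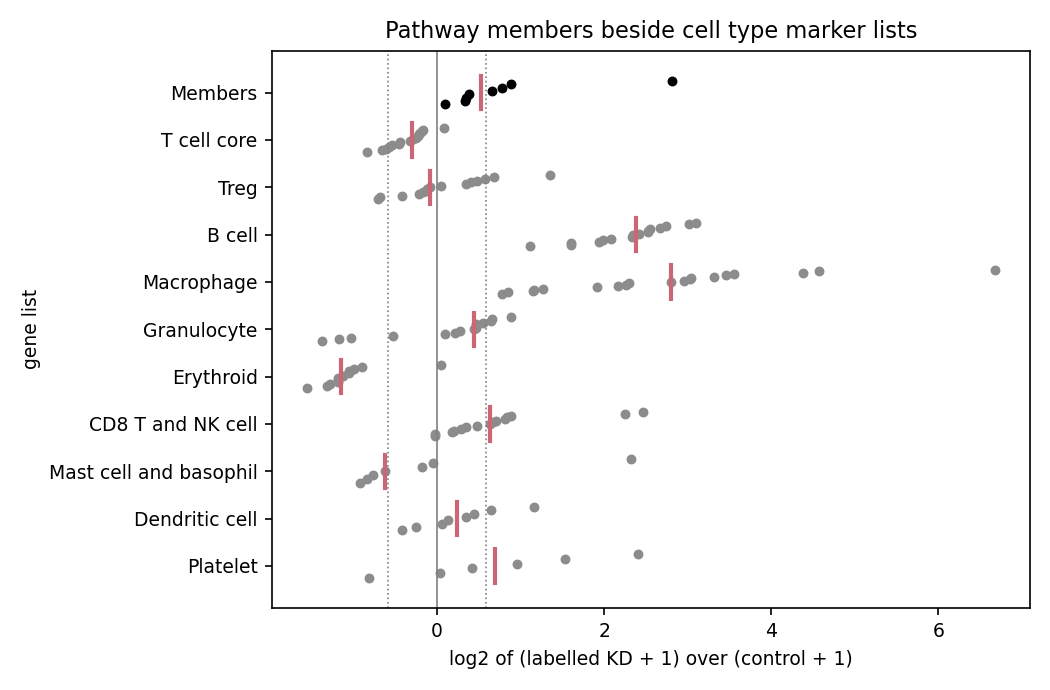
Log2 difference between the library labelled KD and the control library (horizontal axis) for the 8 pathway members (black) and for each list of cell type markers (grey), with 1 point per detected gene, a red line at each median and dotted lines at 1.5-fold. The median of the members, 0.52, lies between that of the T cell core genes at -0.30 and those of the B cell and macrophage markers at 2.38 and 2.80. Nearer to it are the medians of the dendritic cell, granulocyte, CD8 T and NK cell and platelet markers, at 0.24, 0.44, 0.63 and 0.69. The member Adora3, at 2.81, lies above all of these medians.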

How the data were processed

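RNA-seq was carried out on 2 libraries of splenic Treg cells, 1 per genotype. The authors aligned the reads to mm10 with TopHat, and the submitters' processing notes also name bcl2fastq 2.0, STAR, StringTie and DESeq2 with no role or order. The counting tool, its strand setting and the annotation are not given in the sources used here. The deposited signal values behave as counts scaled by 1 constant in each library: 100% of them were whole multiples of the smallest value within a tolerance of 0.001, and dividing by it recovered the reads. Depth was 20239325 and 18327535 reads.

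The pathway genes and every list were chosen with earlier results of these data known. Differences used a pseudocount of 1, a minimum mean of 1 over both libraries and the 1.5-fold threshold of the methods. No p-value is given, since each genotype has 1 library. Clopper-Pearson, Poisson and conditional exact intervals are at 95%. The 14 ratios within a library were picked once the files were open. Named genes were the 8 members, Mettl14, Foxp3, up to 15 wider pathway genes past 1.5-fold with an interval outside 0 ranked by size, and the gene of each role with the highest mean level per length, and others named were chosen after their values were seen. With 2 libraries no gene could be named for likeness of pattern. Gene models were GENCODE vM21 on GRCm38, with exon lengths as the union of exons, Art2a had no gene model, and Ahsp, an erythroid marker, was not matched in the files.

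With whole reads in hand, an exact binomial test (two-sided, TMM-scaled library sizes, adjusted p under 0.1, at least 10 reads, 1.5-fold) was added, as was edgeR's exact test with an assumed coefficient of variation of 0.4. Both compare these libraries and not the genotypes. The first called 2168 of 14863 genes higher and 2599 lower. Python 3.11.15, numpy 2.4.6, scipy 1.17.1, pandas 2.3.3, matplotlib 3.10.9, R 4.3.3 and edgeR 4.0.16 were used, and the calculations were tested on simulated data.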

Additional observations from a re-analysis of the deposited data

How the results depend on the processing

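The alternatives were another pseudocount (0.1 or 5), scaling (TMM, median of ratios, or the T cell scale), filter (none, or a mean of 10), fold (2) and only genes above 0 in both libraries; the count tests and the sum of Adora3 with Tmigd3 were added once the data had been seen. No paired analysis was possible because there is a single library of either genotype, and for the same reason no library could be left out. All 8 pathway genes kept a difference above 0 under every pseudocount and scaling, and Entpd1, Ada, Dpp4 and Adora3 stayed past 1.5-fold. On the T cell scale the log2 differences moved to 1.08 for Entpd1, 0.63 for Nt5e, 0.96 for Ada, 1.20 for Dpp4 and 0.69 for P2rx7, and relative to the median of all genes they were 0.83, 0.37, 0.70, 0.94 and 0.43, against 0.82, 0.37, 0.70, 0.93 and 0.43 on the deposited scale. That scaling gave 4711 higher genes in all and 26 in the wider pathway. At 2-fold, 1722 genes were higher, 10 of them in the wider pathway. With a minimum mean of 10, 2035 genes were lower, and with only genes above 0 in both libraries, 1904. The exact binomial test, which also required 1.5-fold, called 2599 genes lower and the same 4 pathway genes higher. With edgeR's exact test at an assumed coefficient of variation of 0.4, 229 genes were higher and 569 lower, 0 and 1 of them in the wider pathway (Adora1), and of the 8 pathway genes Adora3 was called. Depth limits Adora2b most among the pathway genes near 0, since its interval spans both directions.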

Other observations

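Adenosine inside the cell can be deaminated by the product of Ada or phosphorylated by the product of Adk, and the 2 genes stood on opposite sides. In the control library there were 0.264 Ada reads for each Adk read, and in the library labelled KD there were 0.916. The ratio was 3.47 times as high in the library labelled KD (conditional exact 95% interval 2.87 to 4.2, counting error only) and does not depend on the scaling of the libraries. This pair was chosen after its values were seen, and it has no replicate check. The ratio is taken over all cells of a library and not within a cell. Summed erythroid markers were 31154.7 (control) and 14547.7 (library labelled KD), and summed B cell markers 10617.1 and 53598.9. The part of such cells in the ratio was not tested.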
